A study of Mus musculus with 10 samples.

Results

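The nuclear genes of the mitochondrial respiratory chain and of the ATP synthase were followed in 3 populations of fluorescent cells sorted from the ischemic hemisphere of the mouse brain. Genes were taken by symbol, as those that begin with Ndufa, Ndufb, Ndufc, Ndufs, Ndufv, Sdha, Sdhb, Sdhc, Sdhd, Uqcr, Cox4i, Cox5, Cox6, Cox7, Cox8 or Atp5. Symbols with -ps were left out. The rule gave 99 of the 28585 genes counted, of which 36 belong to complex I, 4 to complex II, 8 to complex III, 19 to complex IV and 17 to complex V, the ATP synthase. Another 12 encode assembly factors whose symbols share the prefixes, and 3 are retrocopies annotated as pseudogenes. The rule reads symbols and not levels, but the genes were chosen with earlier results of these data known.

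The first group held 4 libraries of CD11c-eYFP+ cells of Tg(Itgax-Venus)1Mnz mice, replicates 23, 24, 26 and 27, in which the CD11c gene Itgax drives a yellow fluorescent protein. These mice were 13 to 14 weeks old. The second held 3 libraries, replicates 3, 11 and 15, of CD11c-eYFP+ cells from C57BL/6 mice of 15 to 16 weeks that shared a circulation with a Tg(Itgax-Venus)1Mnz partner by parabiosis. Reporter cells in the brain of these hosts come from the partner. Microglia, the resident macrophages of the brain, formed the group against which both were set, with 3 libraries, replicates 39, 40 and 41, of CX3CR1CreERT2:Rosa26-tdT mice of 13 to 14 weeks. In these mice a Cre under the control of Cx3cr1 switches on the red reporter. All animals are labelled female except the one of parabiotic replicate 15, whose labels give no sex and no cell type, name C57BL/6 as the strain and Tg(Itgax-Venus)1Mnz as the genotype. That library was placed by its title. Nothing in the labels says whether 1 library is 1 animal, so p-values measure only the spread between these libraries, which may be technical.

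The respiratory chain sits in the inner mitochondrial membrane. Complexes I and II pass electrons from NADH and succinate to coenzyme Q, complex III hands them to cytochrome c and complex IV to oxygen. Complexes I, III and IV pump protons, and complex V uses the proton gradient to make ATP. Most subunits are encoded in the nucleus, while a small set of core subunits of complexes I, III, IV and V is encoded in the mitochondrial genome. Activated macrophages and dendritic cells are known to shift between oxidative phosphorylation and glycolysis.

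The promoters were searched for letters bound by known activators. NRF1, which binds a palindrome rich in GC, and the ETS factor GABPA are known activators of many of these genes. RefSeq promoters of GRCm38.p6, 250 bases before to 50 after the start, matched 78 of the 99 genes. The core of the NRF1 palindrome, GCATGCG on either strand, was found in 13 of the 78 (16.7%), in 7.11% of the promoters of tested genes and in 4.01% of all promoters. The ETS letters CCGGAAG, on either strand, were found in 21 of the 78 (26.9%), in 19.6% of tested genes and in 9.93% of all. To show where these letters lie, the 150 bases before the RefSeq start are given 5′ to 3′ on the coding strand for 5 of the 9 genes that hold a match there and were called higher in parabiotic cells than in microglia, with matches in capitals. They are the 5 with the lowest adjusted p.
Atp5h: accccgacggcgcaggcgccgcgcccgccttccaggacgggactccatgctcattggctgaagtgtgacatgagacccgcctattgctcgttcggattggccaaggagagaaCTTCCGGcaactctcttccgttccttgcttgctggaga
Ndufa11: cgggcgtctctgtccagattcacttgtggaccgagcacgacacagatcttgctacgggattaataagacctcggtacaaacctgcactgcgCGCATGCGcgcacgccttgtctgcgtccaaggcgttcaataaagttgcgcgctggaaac
Ndufaf8: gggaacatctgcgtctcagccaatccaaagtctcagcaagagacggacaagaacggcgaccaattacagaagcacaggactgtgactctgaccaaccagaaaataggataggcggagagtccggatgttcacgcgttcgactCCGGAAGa
Ndufb7: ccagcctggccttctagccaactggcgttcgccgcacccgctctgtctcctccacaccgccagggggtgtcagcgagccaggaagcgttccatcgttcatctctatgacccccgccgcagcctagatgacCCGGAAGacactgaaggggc
Sdhb: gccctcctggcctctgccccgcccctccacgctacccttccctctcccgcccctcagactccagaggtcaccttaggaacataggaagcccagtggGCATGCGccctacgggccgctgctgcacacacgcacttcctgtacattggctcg
In the same order, these stretches lie at chr11:115419920-115420069 (minus strand), chr17:56717612-56717761 (plus strand), chr11:120098784-120098933 (plus strand), chr8:83566608-83566757 (plus strand) and chr4:140961121-140961270 (plus strand) of GRCm38.p6. Ndufa11, an accessory subunit of complex I, and Sdhb, the iron-sulfur subunit of complex II, hold the NRF1 core, in Ndufa11 on both strands. Atp5h, of the peripheral stalk of the ATP synthase, Ndufb7, of the membrane arm of complex I, and Ndufaf8, an assembly factor of complex I, hold the ETS letters. A match describes letters, not binding.

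Libraries held 31534625 to 41730688 counts, and 92 of the 99 genes had enough counts to be tested, beside 15151 genes in all. The microglial markers P2ry12, Tmem119, Sall1 and Siglech summed to 668 to 1941 CPM (counts scaled to the size of the library) in Itgax-Venus cells, to 248 to 426 CPM in parabiotic cells and to 4264 to 5369 CPM in microglia. All 4 were called lower than in microglia in both CD11c-eYFP+ groups. The dendritic cell markers Flt3, Zbtb46, H2-Aa, Ccr7 and Cd209a summed to 848 to 3064 CPM in Itgax-Venus cells, to 5367 to 6955 CPM in parabiotic cells and to 32.6 to 56.4 CPM in microglia. All 5 were called higher in parabiotic cells than in microglia, as were the 4 monocyte markers. In Itgax-Venus cells 4 of the 5 dendritic cell markers and all 4 monocyte markers were called higher than in microglia. Neutrophil markers, Ly6g and S100a8 among them, summed to 451 CPM in parabiotic replicate 11 and to at most 53.6 CPM in any other library. The astrocyte markers Gfap, Aqp4, Slc1a2 and Aldh1l1 summed to 6.86 to 9.22 CPM in Itgax-Venus cells, 2.7 to 4.5 CPM in parabiotic cells and 16.4 to 33.4 CPM in microglia, and 2 of the 4 were called lower in each CD11c-eYFP+ group than in microglia. The 4 oligodendrocyte markers summed to 54.3 to 120 CPM in Itgax-Venus cells, 127 to 147 CPM in parabiotic cells and 71.8 to 93 CPM in microglia. In parabiotic cells over microglia 1 of them was called higher and 1 lower, and in Itgax-Venus cells 0 higher and 1 lower. The groups thus differ in cell type by their markers, and in such sorted bulk RNA a change in the mix of cells and a change in RNA per cell cannot be told apart. The part of the cell mix in the results on the respiratory chain was not tested.

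Itgax-Venus replicates 26 and 27 carry library numbers apart from those of the other 8 libraries, and they stood apart in the genes described here. Both lay above both of replicates 23 and 24 for 82 of the 92 tested genes, against 26.8% of all 15151 tested genes. The median difference was 0.69 on the log2 scale for the respiratory chain genes and -0.01 for all tested genes. The microglial markers summed to 1591 and 668 CPM in replicates 26 and 27, and to 1911 and 1941 CPM in replicates 23 and 24. The dendritic cell markers summed to 848 and 1378 CPM in replicates 26 and 27, and to 3064 and 2952 CPM in replicates 23 and 24. What moved the respiratory chain genes with these libraries was not tested. The main results on Itgax-Venus cells are given also with a term for these 2 libraries, which leaves the group's level to rest on replicates 23 and 24.

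The first question was whether CD11c-eYFP+ cells that had reached the brain from the circulation differed from microglia. Respiratory chain genes were higher in parabiotic cells: 37 of the 92 tested genes passed an adjusted p of 0.05 as higher and 1, Cox6a2, as lower, where 17.4% of all tested genes were called higher and 17.9% lower. 86 of the 92 log2 fold changes were positive. Their median was 0.62, or 1.54-fold, and that of all tested genes was -0.02. All 3 parabiotic libraries lay above all 3 microglia libraries for 74 of the 92 genes, against 30.5% of all tested genes. The count of calls, though not the direction, moved with the libraries in the fit: 69 genes were called higher with the term for replicates 26 and 27 (22.8% of all tested genes), 75 without these 2 libraries (27.4%), and 4 when microglia replicate 40 was left out.

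**Figure D1:**
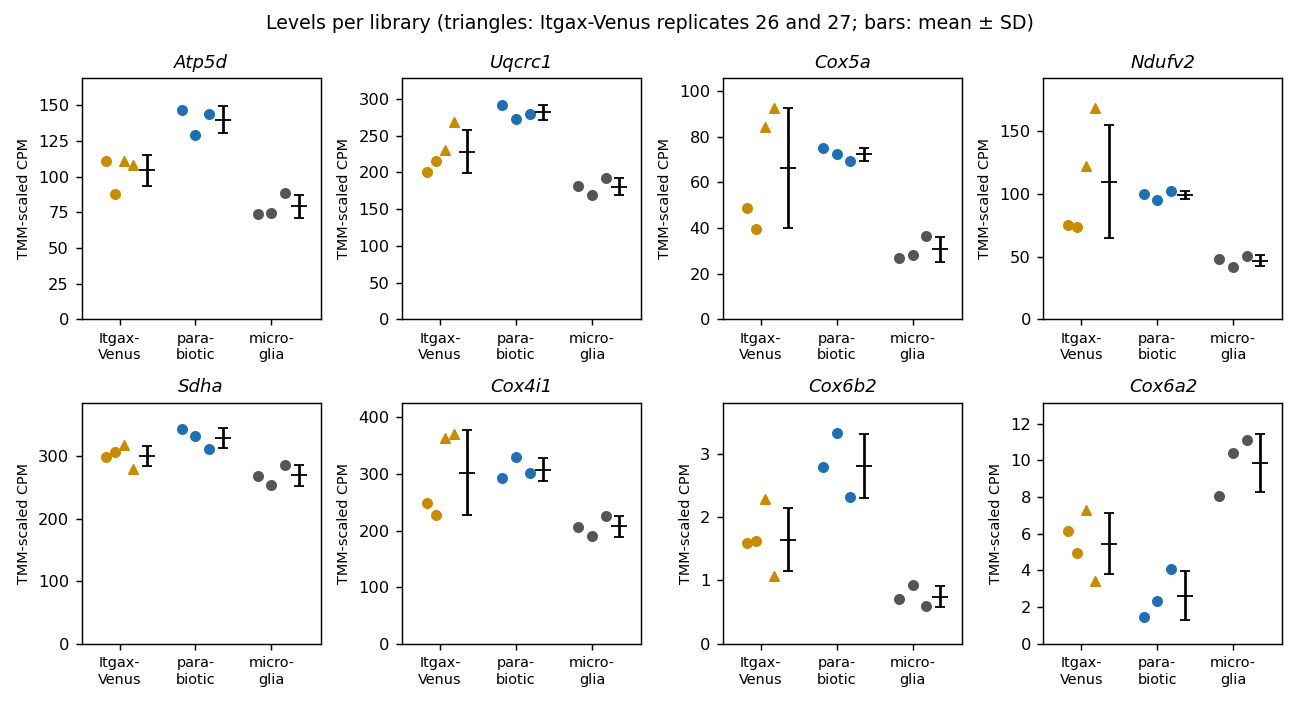
TMM-scaled CPM of 8 respiratory chain genes in each library, with Itgax-Venus CD11c-eYFP+ cells on the left, parabiotic CD11c-eYFP+ cells in the middle and microglia on the right of each panel. Points are libraries, triangles are Itgax-Venus replicates 26 and 27, and bars give the mean ± SD. Parabiotic libraries lie above microglia libraries for the 7 other genes and below them for Cox6a2.

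Complex V had the most calls for its size. Its catalytic F1 part is built of subunits alpha, beta, gamma, delta and epsilon, encoded by Atp5a1, Atp5b, Atp5c1, Atp5d and Atp5e, and all 5 were called higher in parabiotic cells than in microglia. Atp5b, the catalytic beta subunit and the gene with the highest level per length of all 99 (469 CPM per kb in parabiotic cells), had 942, 832 and 924 CPM in parabiotic cells and 611, 582 and 673 CPM in microglia. The groups did not overlap, and the log2 fold change was 0.53 ± 0.18 (SE, adjusted p = 0.0438).

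Atp5d, the delta subunit of the central stalk, had the lowest adjusted p of the genes called higher in complex V. It had 147, 129 and 144 CPM in parabiotic cells and 74, 74.9 and 88.7 CPM in microglia, a log2 fold change of 0.82 ± 0.15 (adjusted p = 0.00167). In Itgax-Venus cells it had 111, 88.2, 111 and 108 CPM, below every parabiotic library. Atp5d is one of 4 genes, with Cox5a, Uqcrc1 and Cox6a2, whose call in parabiotic cells over microglia held under every alternative run. On GRCm38 these genes lie at chr10:80138632-80145818 (Atp5d, plus strand), chr9:57521274-57532426 (Cox5a, plus), chr9:108936633-108949623 (Uqcrc1, plus) and chr7:128205435-128206387 (Cox6a2, minus). Atp5a1, the alpha subunit, had a log2 fold change of 0.54 ± 0.19 between parabiotic cells and microglia (adjusted p = 0.0447).

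The c ring of the membrane part is encoded by 3 genes for the same mature protein. Atp5g3 had 188, 201 and 182 CPM in parabiotic cells and 101, 92.8 and 113 CPM in microglia and was called higher (log2 fold change 0.90 ± 0.24, adjusted p = 0.0125). Atp5g1 had 3.42, 3.28 and 3.25 CPM in parabiotic cells and 2.43, 1.75 and 2.34 CPM in microglia, and was not called (adjusted p = 0.268). Atp5g2 lay at or below 0.7 CPM in every library, with groups that overlapped. Atp5g1 and Atp5g2 have annotated pseudogene copies of at least 98% identity over at least 100 bases, as do 11 others of the 99 genes, so that their counts are uncertain, while Atp5g3 has none. Per length, Atp5g3 stood at 263 CPM per kb in parabiotic cells, Atp5g1 at 0.703 and Atp5g2 at 0.639. The transcript taken for Atp5g1 has 4715 nt, against 723 nt for Atp5g3 and 731 nt for Atp5g2. The level of Atp5g1 per length thus depends on which transcript is taken. Of the 13 genes with such copies 2 were called higher in parabiotic cells than in microglia, and of the 79 tested genes without one 35 were.

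In complex I, 13 of 36 genes were called higher in parabiotic cells than in microglia and none lower, with 35 of 36 fold changes positive. 5 of the 7 core subunits were among them. Ndufv1, which carries the FMN that takes electrons from NADH, had 83.8, 78.4 and 80.5 CPM in parabiotic cells and 51.1, 47.5 and 53.7 CPM in microglia, a log2 fold change of 0.67 ± 0.17 (adjusted p = 0.00981). Ndufv2, its partner in the NADH-oxidising module, had 99.9, 95.2 and 102 CPM in parabiotic cells and 48, 42 and 50.4 CPM in microglia. Its log2 fold change of 1.08 ± 0.28 (adjusted p = 0.012) was the largest of complex I.

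Ndufs1, a core subunit with iron-sulfur clusters, was not called: it had 80.8, 79.1 and 92.5 CPM in parabiotic cells and 72.9, 63.2 and 70.1 CPM in microglia (log2 fold change 0.29 ± 0.17, adjusted p = 0.218). Among the accessory subunits Ndufb10, of the membrane arm, had 57.9, 65.6 and 57.4 CPM in parabiotic cells and 31, 29.4 and 38.2 CPM in microglia (0.87 ± 0.22, adjusted p = 0.00898). Ndufb8 and Ndufb7, of the same arm, had log2 fold changes of 0.86 ± 0.23 (adjusted p = 0.0136) and 0.78 ± 0.23 (adjusted p = 0.0219). Ndufa1, the gene of complex I with the highest level per length, was not called, and its groups overlapped, at 38.4, 52.9 and 43.6 CPM in parabiotic cells and 27.9, 28.4 and 39.3 CPM in microglia.

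Succinate dehydrogenase, complex II, has no subunit in the mitochondrial genome. Its iron-sulfur subunit Sdhb had 175, 191 and 185 CPM in parabiotic cells and 118, 99.6 and 118 CPM in microglia, and was called higher at 0.71 ± 0.23 on the log2 scale (adjusted p = 0.0302). Sdhd, a membrane anchor, was called higher too, at 0.67 ± 0.23 (adjusted p = 0.0447). The other anchor Sdhc was not, with a log2 fold change of 0.46 ± 0.18 (adjusted p = 0.0652). Sdha, the flavoprotein that oxidises succinate, had 344, 332 and 312 CPM in parabiotic cells and 268, 253 and 286 CPM in microglia. Its groups did not overlap, but its log2 fold change of 0.29 ± 0.13 did not pass (adjusted p = 0.107).

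In complex III, 3 of 8 genes were called higher in parabiotic cells, and all 8 fold changes were positive. Uqcrc1, a core subunit that faces the matrix, had 292, 273 and 280 CPM in parabiotic cells and 181, 169 and 192 CPM in microglia (log2 fold change 0.64 ± 0.15, adjusted p = 0.0061). Uqcrfs1, the Rieske iron-sulfur protein, had 104, 101 and 103 CPM in parabiotic cells and 65.3, 57.3 and 67.9 CPM in microglia (0.69 ± 0.22, adjusted p = 0.0302). Both genes showed groups that did not overlap. Uqcrb, a small subunit near the site of coenzyme Q, had a log2 fold change of 0.84 ± 0.34 that did not pass (adjusted p = 0.0723), and it has a pseudogene copy.

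Complex IV, cytochrome c oxidase, is known for subunits with isoforms for different tissues, and it held the largest changes of both signs. Per length, the ubiquitous Cox6a1 stood at 287 CPM per kb in Itgax-Venus cells, 230 in parabiotic cells and 180 in microglia, and its muscle isoform Cox6a2 at 8.03, 3.85 and 14.5 CPM per kb in the same groups. Cox4i1, the ubiquitous subunit 4 and the highest of the complex per length, had 292, 330 and 301 CPM in parabiotic cells and 206, 190 and 226 CPM in microglia (log2 fold change 0.57 ± 0.20, adjusted p = 0.0497). Its lung isoform Cox4i2 lay at or below 0.438 CPM in every library and was not tested. Cox5a, a subunit on the matrix side, had 75.2, 72.4 and 69.5 CPM in parabiotic cells and 27, 28.2 and 36.7 CPM in microglia, a log2 fold change of 1.24 ± 0.30 (adjusted p = 0.00736). Cox5b, which binds zinc, was called higher at 0.92 ± 0.25 (adjusted p = 0.016).

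Cox6a2, the isoform of heart and skeletal muscle, was the only one of the 92 genes called lower in parabiotic cells. It had 6.17, 4.96, 7.31 and 3.41 CPM in Itgax-Venus cells, 1.46, 2.31 and 4.07 CPM in parabiotic cells and 8.08, 10.4 and 11.1 CPM in microglia. Both CD11c-eYFP+ groups lay wholly below microglia, and the log2 fold change was -1.92 ± 0.39 in parabiotic cells over microglia (adjusted p = 0.00316). It was -0.86 ± 0.35 in Itgax-Venus cells over microglia, which did not pass (adjusted p = 0.119). The muscle markers Myh6, Myl2, Ckm and Acta1 summed to 0.917 to 2.71 CPM in Itgax-Venus cells, 0.182 to 0.941 CPM in parabiotic cells and 1.84 to 2.36 CPM in microglia. Myh6 was at 0 in microglia and Itgax-Venus cells, and Myl2 was called lower in parabiotic cells than in microglia; whether these levels bear on Cox6a2 was not tested. Its ubiquitous counterpart Cox6a1 stood at 123, 141 and 130 CPM in parabiotic cells and 93.7, 90.8 and 123 CPM in microglia and was not called (adjusted p = 0.275).

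Cox6b2, the testis isoform of subunit 6b, had the largest positive fold change, at low levels. It had 2.79, 3.32 and 2.31 CPM in parabiotic cells and 0.706, 0.921 and 0.601 CPM in microglia (log2 fold change 1.91 ± 0.38, adjusted p = 0.00255). Its ubiquitous counterpart Cox6b1 had 129, 145 and 134 CPM in parabiotic cells and 76.5, 70.1 and 102 CPM in microglia (0.71 ± 0.25, adjusted p = 0.047). The muscle isoform Cox7a1 (0.976 to 1.09 CPM in parabiotic cells and 0.198 to 0.728 CPM in microglia) was not called (adjusted p = 0.133). Nor were Cox7a2 (adjusted p = 0.117), its relative Cox7a2l, which takes part in supercomplexes (adjusted p = 0.0685), or Cox8a (adjusted p = 0.0786), each with all parabiotic libraries above all microglia libraries. Ndufa4, first counted to complex I and now to complex IV, overlapped between the groups. Its relative Ndufa4l2, a gene known to respond to hypoxia, lay at or below 0.0912 CPM in every library, and Cox8b, another muscle isoform, at or below 0.141 CPM. Neither was tested.

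Of the 12 assembly factors within the rule, 4 were called higher in parabiotic cells. Ndufaf5, which modifies a subunit of complex I early in its assembly, had 7.18, 6.78 and 4.71 CPM in parabiotic cells and 2.66, 3.16 and 3.42 CPM in microglia (log2 fold change 1.02 ± 0.28, adjusted p = 0.0146). Sdhaf4, which helps to build complex II and had the highest level per length among these factors, was not called (adjusted p = 0.103). The 3 retrocopies were not tested, and the highest of them per length, Cox6c2, reached at most 0.354 CPM.

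**Figure D2:**
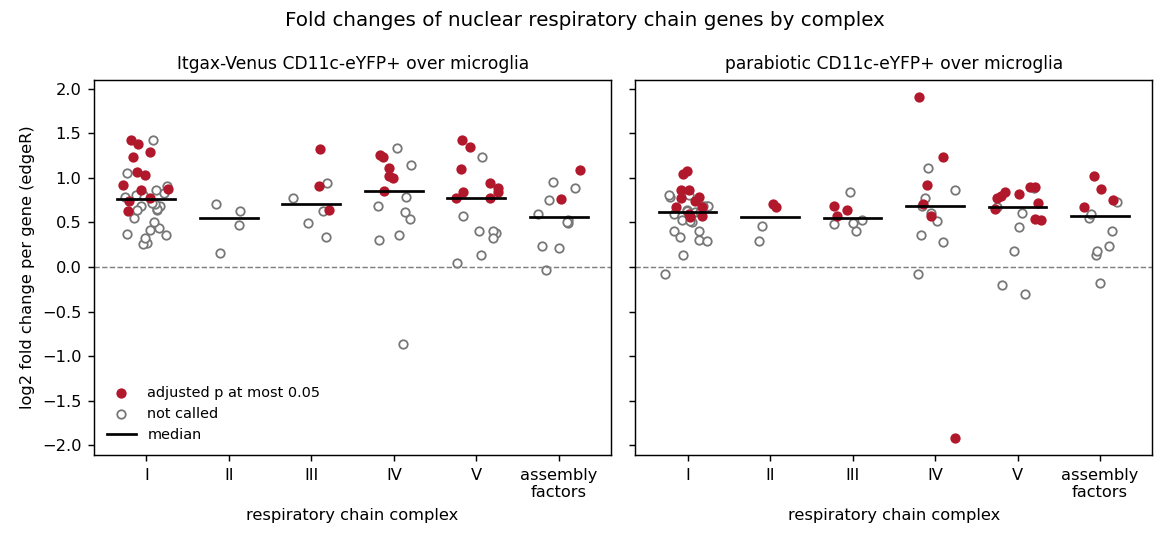
Log2 fold changes of the 92 tested genes, sorted by complex, in Itgax-Venus CD11c-eYFP+ cells over microglia on the left and in parabiotic CD11c-eYFP+ cells over microglia on the right. Each point is a gene, filled where its adjusted p was at most 0.05, and black lines are medians. Nearly all points lie above 0 in both panels, and the lowest is Cox6a2 in both.

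The second comparison set CD11c-eYFP+ cells of Itgax-Venus mice against the same microglia libraries. Here edgeR called 32 of the 92 genes higher and 0 lower (1 lower at an unadjusted p of 0.05, Cox6a2, and 0 by DESeq2 and limma-voom), while 8.88% of all tested genes were called higher and 4.79% lower. The median log2 fold change was 0.75, or 1.68-fold, and all 4 Itgax-Venus libraries lay above all microglia libraries for 46 genes, against 15.6% of all tested genes. These calls rested on replicates 26 and 27. With a term for them, 1 gene was called, Ndufv2, where 6.75% of all tested genes were called higher, and the median was 0.31. Without them 8 genes were called higher (9.96% of all tested genes), at a median of 0.30. Leaving out microglia replicate 39, or replicate 40, left 0 calls, with 0 lower calls as well. Over all genes, fits with a library left out called 563 to 1801 higher.

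Ndufv2 had 75.1, 73.2, 122 and 168 CPM in Itgax-Venus cells and 48, 42 and 50.4 CPM in microglia. Replicates 26 and 27 were the highest, and all 4 lay above microglia. The log2 fold change was 1.23 ± 0.27 (adjusted p = 0.014), and with the term it was 0.66 (adjusted p = 0.0226). Uqcrb had 30.6, 23.1, 56.7 and 65.8 CPM in Itgax-Venus cells and 17.5, 15.7 and 19.8 CPM in microglia, a log2 fold change of 1.32 ± 0.32 (adjusted p = 0.0224) that became 0.61 with the term (adjusted p = 0.0534). Cox5b had 21.9, 17.7, 33.8 and 35.8 CPM in Itgax-Venus cells and 12.9, 13.2 and 14.9 CPM in microglia (1.00 ± 0.24, adjusted p = 0.0217; with the term 0.54, adjusted p = 0.0568).

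Cox5a had 48.6, 39.7, 84.5 and 92.6 CPM in Itgax-Venus cells, which gave a log2 fold change of 1.11 ± 0.28 over microglia (adjusted p = 0.0246) and of 0.53 with the term (adjusted p = 0.0744). Ndufb7, Ndufb8 and Ndufaf5 were called higher at log2 fold changes of 0.92, 0.88 and 1.09, and at 0.54, 0.50 and 0.79 with the term none of them passed. By complex, 12 of 36 genes of complex I, none of the 4 of complex II, 3 of 8 of complex III, 6 of 15 tested of complex IV and 9 of 17 of complex V were called higher. In complex V, 7 of the 8 genes of the membrane part and peripheral stalk other than the c ring were called, but 1 of the 5 of F1, Atp5e. In complex I, 11 of the 29 accessory subunits were called but 1 of the 7 core subunits. Neither split remained with the term for replicates 26 and 27. It left 0 calls in complex V, and in complex I 0 accessory subunits and 1 core subunit. The transcript of Atp5e has 421 nt and those of the other F1 genes 1166 to 2471 nt. The part of length in these splits was not tested.

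Both comparisons share the microglia libraries, so a low or high microglia library moves both, and their calls are not independent of each other.

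The third comparison set Itgax-Venus against parabiotic CD11c-eYFP+ cells. None of the 92 genes was called in either direction by edgeR, where 7.63% of all tested genes were called higher and 2.42% lower. At an unadjusted p of 0.05 there were 3 genes: Atp5d, Cox6a2 and Cox6b2, at log2 fold changes of -0.42 ± 0.14, 1.06 ± 0.37 and -0.77 ± 0.34. DESeq2 called Cox6a2 higher and Atp5d lower, and limma-voom called none. The median log2 fold change was 0.11.

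With the term for replicates 26 and 27, 4 genes were called lower in Itgax-Venus than in parabiotic cells, against 2.53% of all tested genes. They were Cox5a, Cox7a2l, Atp5g3 and Atp5c1, at log2 fold changes of -0.71, -0.51, -0.50 and -0.61, and only 9 of 92 fold changes were positive. Without these 2 libraries 23 genes were called lower, against 9.23% of all tested genes, at a median of -0.33. Cox5a shows the pattern: replicates 23 and 24, at 48.6 and 39.7 CPM, lay between all parabiotic and all microglia libraries, while replicates 26 and 27, at 84.5 and 92.6 CPM, lay above all of them.

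Subunits encoded in the mitochondrial genome were read beside the nuclear genes. Of 13 such genes listed, 8 had counts: mt-Nd1 to mt-Nd6, mt-Cytb and mt-Co1. The shares and ratios below cover only these 8, with no gene of the ATP synthase among them. Of the 8, 7 were tested, and edgeR called none in any comparison, nor did DESeq2 or limma-voom. At an unadjusted p of 0.05, 0 passed against microglia in either group, and 1, mt-Cytb, as higher in Itgax-Venus than in parabiotic cells. All 7 fold changes were negative in parabiotic cells over microglia, with a median of -0.17, and positive in Itgax-Venus cells over microglia, with a median of 0.32. The direction in Itgax-Venus cells turned with the term for replicates 26 and 27, which gave a median of -0.33 with 0 of 7 positive, and without these libraries the median was -0.34. In Itgax-Venus over parabiotic cells the median was 0.57, and -0.23 with the term. The nuclear genes held 0.613% and 0.557% of all counts in Itgax-Venus replicates 23 and 24, up to 0.908% in replicates 26 and 27, 0.714%, 0.721% and 0.686% in parabiotic libraries and 0.494%, 0.451% and 0.522% in microglia libraries. Both CD11c-eYFP+ groups lay wholly above microglia. The 8 mitochondrial genes held 0.261%, 0.127%, 0.472% and 0.356% in Itgax-Venus libraries, 0.196%, 0.240% and 0.205% in parabiotic libraries and 0.308%, 0.232% and 0.234% in microglia libraries, with overlap between all groups. The ratio of nuclear to mitochondrial counts was 1.75 to 4.37 in Itgax-Venus cells, 3.0 to 3.65 in parabiotic cells and 1.60 to 2.23 in microglia.

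**Figure D3:**
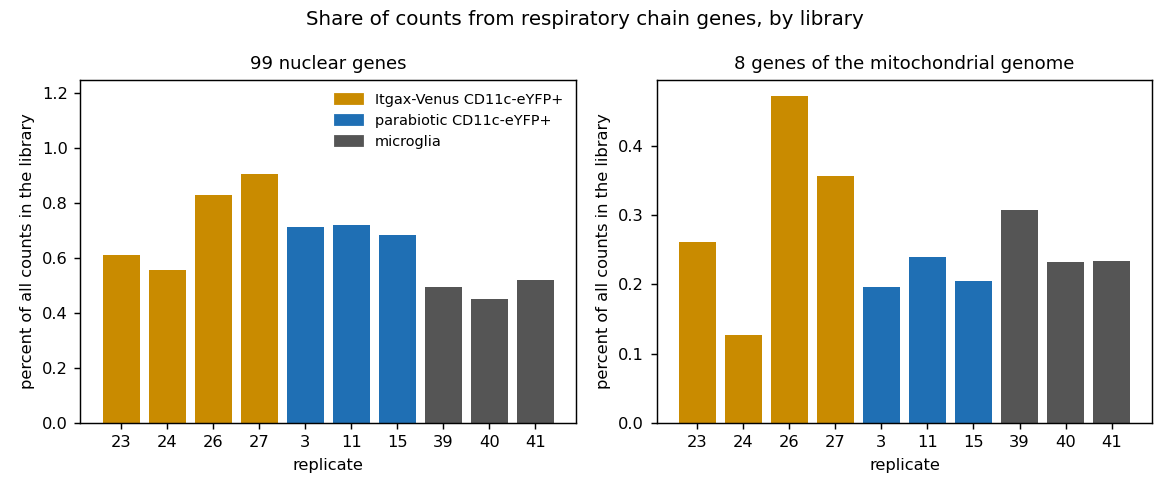
Percent of all counts that fell on the 99 nuclear genes (left) and on 8 genes of the mitochondrial genome (right), 1 bar per library, with replicate numbers below. Nuclear shares of both CD11c-eYFP+ groups lie above the highest microglia share of 0.522%, while the mitochondrial shares overlap between groups.

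Transcript length moved with these results. Respiratory chain genes have short transcripts, and short genes outside the respiratory chain also had positive median fold changes in both CD11c-eYFP+ groups over microglia. Among genes with a mean of at least 10 CPM, the 26 respiratory chain genes under 700 nt had a median log2 fold change of 0.68 in parabiotic cells over microglia, and the 102 other genes of that length 0.60. 42.3% of these respiratory chain genes and 37.3% of the others were called higher. From 1500 to under 2500 nt the medians were 0.57 for 13 respiratory chain genes and 0.19 for 1858 others, with 53.8% and 23.3% called higher. From 2500 nt on they were 0.30 for 7 and -0.06 for 5437. The 7 include Ndufb2 and Ndufab1, for which transcripts of 4371 and 3479 nt were taken. In Itgax-Venus cells over microglia the medians under 700 nt were 0.89 for the respiratory chain genes and 0.70 for the others, and with the term for replicates 26 and 27 they were 0.43 and 0.34. The part of length, RNA input and amplification in the fold changes was not tested; no input per library is given in the labels.

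**Figure D4:**
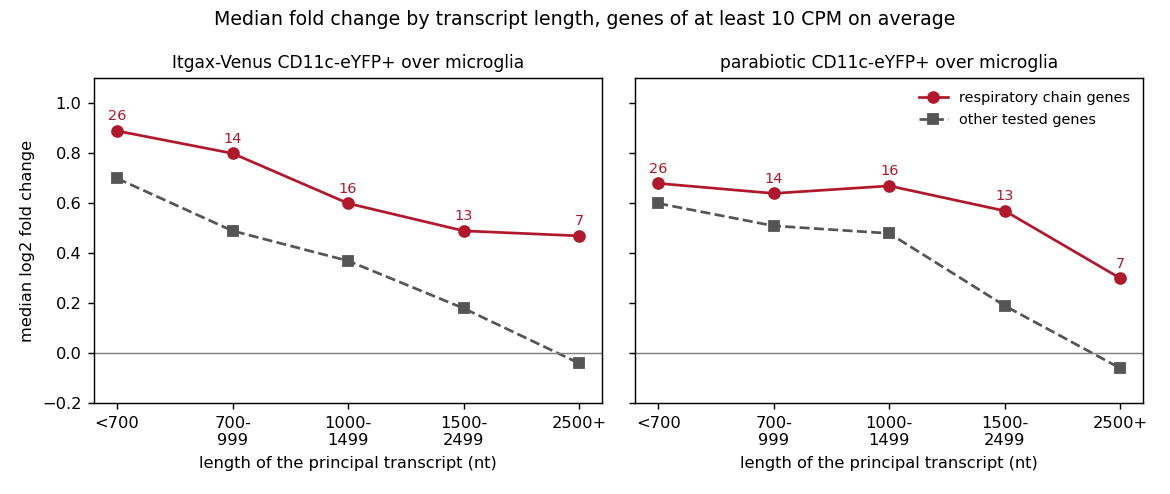
Median log2 fold change by length of the principal transcript, for respiratory chain genes (circles, with their number) and other genes (squares), all with a mean of at least 10 CPM, in Itgax-Venus CD11c-eYFP+ cells over microglia on the left and parabiotic CD11c-eYFP+ cells over microglia on the right. Medians are lowest for the longest genes. In parabiotic cells over microglia the respiratory chain genes and the others lie at 0.68 and 0.60 under 700 nt, and at 0.57 and 0.19 from 1500 to under 2500 nt. Between these bins they lie at 0.64 and 0.51 from 700 nt, and at 0.67 and 0.48 from 1000 nt.

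Neighbouring pathways were read from lists. Of 18 genes of pyruvate oxidation and the citric acid cycle, 8 were called higher and 1 lower in parabiotic cells than in microglia, where 17.4% and 17.9% of all tested genes were, at a median log2 fold change of 0.47. Mdh2, mitochondrial malate dehydrogenase, averaged 265 CPM in parabiotic cells and 117 CPM in microglia (log2 fold change 1.18 ± 0.18, adjusted p = 0.000398). Fh1, fumarase, averaged 65.1 CPM in parabiotic cells and 32.9 CPM in microglia (0.98 ± 0.17, adjusted p = 0.00102). Suclg1, the subunit common to both succinyl-CoA ligases, was called higher (0.83 ± 0.17, adjusted p = 0.00363), and Suclg2, the subunit for GTP, lower (-0.89 ± 0.17, adjusted p = 0.00237). In Itgax-Venus cells 4 of the 18 were called higher than in microglia, where 8.88% of all tested genes were, and the median was 0.44. With the term for replicates 26 and 27, 1 was called and the median was 0.23.

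Of 30 assembly factors outside the rule, 5 were called higher in parabiotic cells and 0 lower, at a median of 0.24, and this share of higher calls is close to the 17.4% of all tested genes. Cox17, the copper chaperone of complex IV, averaged 21.9 CPM in Itgax-Venus cells, 19.5 CPM in parabiotic cells and 9.85 CPM in microglia, and was called higher in both comparisons with microglia, in Itgax-Venus cells also with the term for replicates 26 and 27 (adjusted p = 0.0196). Of 14 genes of coenzyme Q synthesis and electron transfer, 3 were called higher in parabiotic cells and 0 lower, at a median of 0.17. This share of higher calls, too, is close to the 17.4% of all tested genes. The electron transfer flavoprotein genes Etfa (1.04 ± 0.25, adjusted p = 0.00706) and Etfb (0.84 ± 0.19, adjusted p = 0.00527) were among the 3. Cytochrome c itself, Cycs, averaged 4.83 CPM in Itgax-Venus cells, 3.32 CPM in parabiotic cells and 2.59 CPM in microglia, and was called higher in Itgax-Venus cells than in microglia (adjusted p = 0.0489) but not in parabiotic cells (adjusted p = 0.355). With the term for replicates 26 and 27 the call in Itgax-Venus cells was lost (log2 fold change 0.58, adjusted p = 0.213), and the difference between the CD11c-eYFP+ groups did not pass (adjusted p = 0.253). Of 9 carriers, channels and the ATP synthase inhibitor, 3 were called higher in parabiotic cells and 0 lower, at a median of 0.41. Among all tested genes 17.4% were called higher. Atpif1, the inhibitor, was called at 0.95 ± 0.22 (adjusted p = 0.0066), and Slc25a20, the carnitine carrier that brings fatty acids into mitochondria, at 2.14 ± 0.17 (adjusted p = 9.13e-06).

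Of 16 glycolysis genes, 3 were called higher and 2 lower in parabiotic cells than in microglia, close to the 17.4% and 17.9% of all tested genes. Pfkp, the platelet isoform of phosphofructokinase, averaged 137 CPM in parabiotic cells and 7.21 CPM in microglia, while Hk2, a hexokinase, averaged 53.9 CPM in parabiotic cells and 219 CPM in microglia (log2 fold change -2.02 ± 0.33, adjusted p = 0.000838). Of 9 regulators of respiratory genes, 8 were tested. Myc was called lower in both CD11c-eYFP+ groups than in microglia, at 61.4 CPM in Itgax-Venus cells, 30.9 CPM in parabiotic cells and 104 CPM in microglia. Nrf1, Gabpa, Esrra, Tfam, Yy1, Ppargc1b and Hif1a were not called in any comparison, and Ppargc1a averaged at most 0.213 CPM in a group and was not tested. The NRF1 core was found in 4 of the 33 promoters of respiratory chain genes called higher in parabiotic cells than in microglia (12.1%) and in 9 of 43 of the other tested ones (20.9%). The ETS letters were found in 12 of the 33 (36.4%) and in 9 of the 43 (20.9%).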

How the data were processed

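Per the labels' protocols, sorted cells were made into libraries by template switching from 1 or 5 ng of RNA. The genome build GRCm38 and the tools STAR 2.5.3a, FastQC 0.11.5 and DESeq2 are listed, with no role given, in the submitters' processing notes. The deposited values are raw counts per Ensembl gene. The counting program, its strand setting and its treatment of reads that map to several places are unknown here, so reads of overlapping genes cannot be told apart. Symbols, coordinates and transcript lengths came from GENCODE M21 (GRCm38). Pseudogene copies were searched with blastn 2.17.0.

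The members and lists were chosen with earlier results of these data known. All 10 libraries entered one fit in edgeR 4.0.16 (R 4.3.3) with filterByExpr by group, which kept 15151 genes and removed 13434, TMM scaling and robust quasi-likelihood tests, adjusted by Benjamini-Hochberg over all genes tested. CPM are TMM-scaled. The biological coefficient of variation was 0.317, so that spread between libraries, more than counting error, set the precision. The script was tested on simulated data. Alternatives were RLE and upper quartile scaling, DESeq2 1.42.0, limma-voom (limma 3.58.1), no filter, a minimum of 5 CPM in 3 libraries, a fit of just the 2 groups, a term for Itgax-Venus replicates 26 and 27, and each library left out. Scaling by library totals and leaving out replicates 26 and 27 together were chosen after seeing the data. Genes named are, for each comparison and direction, the 6 called with the lowest adjusted p, the highest of each complex per kb, and listed isoforms, catalytic subunits and regulators. Ndufa11, Ndufaf8, Atp5h, Atp5c1, Atp5e and genes of the neighbouring pathways were named after their values were seen. A member gene and a marker gene covered by these rules are not reported here; the marker is left out of the sums.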

Additional observations from a re-analysis of the deposited data

Results flagged for a closer look

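Among the genes taken by the naming rule, a single library stood apart from the other 3 of its group for 2, by the gap to the nearest library over the whole range of the group. Chance alone would mark about 1 in 20 groups in this way. For Atp5d it was Itgax-Venus replicate 24, at 88.2 CPM against 108 to 111 CPM in the other libraries of the group. For Ndufv1 it was Itgax-Venus replicate 27, at 83.9 CPM against 58 to 60.3 CPM, which is at the level of the parabiotic libraries (78.4 to 83.8 CPM).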

How the results depend on the processing

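No paired analysis was possible because the groups share no replicate numbers. In parabiotic cells over microglia, 21 respiratory chain genes were called higher with upper quartile scaling, 74 with only these 2 groups in the fit, 69 with the term for replicates 26 and 27 and 75 without them, against 37; leaving out each library in turn gave 4 to 49, with 12 without microglia replicate 39 and 14, 15 and 17 without parabiotic replicates 3, 11 and 15. 5 of the 38 calls held in every such fit. Over all genes, 4226 higher and 4108 lower were called without replicates 26 and 27, and 1683 to 3249 higher with a library left out. The other alternatives called at least 1863 higher over all genes. In Itgax-Venus cells over microglia, 51 were called higher with DESeq2, 2 with only these 2 groups, 1 with the term and 8 without replicates 26 and 27, against 32, and 0 to 63 with a library left out, 4 of them without replicate 26 and 63 without replicate 24. Over all genes, 774 higher were called with only these 2 groups, and 1464 lower with DESeq2, 455 with only these 2 groups and 280 with the term; a library left out gave 563 to 1801 higher and 165 to 883 lower. In Itgax-Venus over parabiotic cells, DESeq2 called 1 higher and 1 lower, the term 4 lower and the fit without replicates 26 and 27 23 lower, against 0; a library left out gave 0 to 1 higher and 0 to 2 lower. Over all genes, 2057 higher and 1425 lower were called without replicates 26 and 27, 844 lower with DESeq2 and 214 with only these 2 groups; a library left out gave 719 to 1659 higher and 111 to 851 lower. The cause of these moves was not tested, beyond the smaller number of libraries in each. The signs of Ndufv2 and Sdhd in Itgax-Venus over parabiotic cells turned to -0.43 and -0.39 without replicates 26 and 27. Many other signs in this comparison turned too. In the main fit 66 of the 92 fold changes were positive, with the term 9 and without replicates 26 and 27 8. Upper quartile scaling moved the median of all genes in parabiotic cells over microglia to -0.10, and that of the respiratory chain genes to 0.54. Single genes were followed through the alternatives only where the naming rule took them and they were tested, with 105 values in the main fit over the 3 comparisons. Of their values in the alternatives, 1848 kept their side of the threshold, whatever their sign, 153 lost the call and 85 gained it. Another 2 turned sign with a call in either fit. Genes with close copies may be undercounted, and levels under 1 CPM limit the isoforms of complex IV.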
